A study of Mus musculus with 8 samples.

Results

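AP-1 (activator protein 1) is a dimer of basic leucine zipper proteins, and the 10 genes described here encode its FOS, JUN, ATF and BATF subunits: Fos, Fosb, Fosl1, Fosl2, Jun, Junb, Jund, Atf3, Batf and Batf3. They were chosen by symbol from the 24902 gene symbols of a count matrix, and all 10 had a count in each of the 8 libraries and were among the 13173 genes that passed the filter on low counts. The libraries were made from splenic B cells of diseased mice at early removal criteria. There were 4 Eµ-PRMT5 mice, 3 Eµ-PRMT5/TCL1 mice, also called double-transgenic here, and 1 Eµ-TCL1 mouse. Levels are given in counts relative to library size (CPM) after scaling by the trimmed mean of M values (TMM), and values of single mice follow the order of their replicate numbers.

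The strain label of all 8 mice was C57BL/6N, both sexes were used and ages were not given in the labels. Eµ-PRMT5 mice carry human PRMT5 under a VH promoter and the IgH-µ enhancer, which drive the transgene in immature and mature B cells. Line L25 served for the full characterization, and the label of Eµ-PRMT5 mouse 2 holds L25 and the name of a founder. The labels of the other mice, the Eµ-TCL1 mouse included, hold other L numbers, so such a number need not name a line. The lines of the other Eµ-PRMT5 mice are not given. The study made Eµ-PRMT5/TCL1 mice by crossing line L25 with the Eµ-TCL1 model of CLL, in which human TCL1 is expressed in B cells. It also describes such crosses from the other founder lines, and the labels of the Eµ-PRMT5/TCL1 mice used here name none of these lines. No mouse without a transgene enters the comparisons, so every group carries at least 1 oncogenic transgene. The genotype with 1 mouse has no replicate, and tests against it ask only whether that mouse lay outside the spread of the others.

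FOS proteins do not bind DNA as homodimers and pair with a JUN protein, whereas JUN proteins also pair among themselves. Fos, Fosb, Jun, Junb and Atf3 are immediate early genes: signals through the B cell receptor, MAP kinases or stress switch on their transcription without new protein synthesis, and their mRNAs are short-lived. Junb and Jund often restrain growth where Jun promotes it. BATF proteins lack a transactivation domain, pair with JUN proteins, and bind composite sites in lymphocytes together with IRF4 or IRF8.

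The start regions of 4 of these genes are shown because their transcripts varied most clearly together (Fos, Jun and Fosb) or, by Pearson correlation, in the opposite direction to Fos (Atf3) across the mice. Each is the 250 bases before the RefSeq start of the gene on GRCm38.p6, 5′ to 3′ on the strand of the gene. Capitals mark the core of a cAMP response element (TGACGT, or ACGTCA where it lies on the opposite strand), a variant site (TGACNTCA), a TATA box (TATAAA) or a CCAAT box.
Fos, chr12:85473640-85473889, + strand: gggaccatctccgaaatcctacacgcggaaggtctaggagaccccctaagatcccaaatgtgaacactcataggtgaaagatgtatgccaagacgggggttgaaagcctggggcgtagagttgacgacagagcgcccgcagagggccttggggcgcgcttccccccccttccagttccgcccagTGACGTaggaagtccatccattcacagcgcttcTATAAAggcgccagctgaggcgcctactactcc
Jun, chr4:95052223-95052472, - strand: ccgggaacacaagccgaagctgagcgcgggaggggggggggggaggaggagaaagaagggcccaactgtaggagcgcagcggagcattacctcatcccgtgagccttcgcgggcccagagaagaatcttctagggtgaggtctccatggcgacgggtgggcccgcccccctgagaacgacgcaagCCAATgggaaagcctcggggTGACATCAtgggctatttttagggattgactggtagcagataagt
Fosb, chr7:19310046-19310295, - strand: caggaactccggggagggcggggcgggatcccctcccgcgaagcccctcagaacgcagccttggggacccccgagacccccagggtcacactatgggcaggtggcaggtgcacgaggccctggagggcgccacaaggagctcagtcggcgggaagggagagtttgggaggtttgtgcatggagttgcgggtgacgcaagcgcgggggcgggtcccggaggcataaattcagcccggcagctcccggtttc
Atf3, chr1:191183334-191183583, - strand: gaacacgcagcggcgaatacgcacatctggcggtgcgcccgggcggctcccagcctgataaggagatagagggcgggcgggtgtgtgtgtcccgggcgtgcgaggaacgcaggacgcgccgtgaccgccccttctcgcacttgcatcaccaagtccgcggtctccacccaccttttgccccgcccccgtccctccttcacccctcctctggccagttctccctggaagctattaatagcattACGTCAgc

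Of the 10 genes, 9 had an entry in the RefSeq promoter table; Fosl1 had none. Both strands were searched. This core was found in the windows of Fos, where it ended 61 bases before the start, of Atf3 (3 bases) and of Batf (93 bases), and 6.47% of all 32851 promoters of this length held it. The variant site, which also covers the full cAMP response element TGACGTCA, was searched for after the Jun window had been read and was found in that window alone, against 7.49% of all promoters. The TATA box was found only for Fos (12.4% of all promoters), and the CCAAT box for Jun and Junb (33.8%). No window of the 9 held the AP-1 site TGANTCA (6.75% of all promoters), the full cAMP response element (1.55%) or the CArG box (1.47%), and Fosb, Fosl2, Jund and Batf3 matched none of the motifs. These matches describe the letters in the window and no binding was measured. The Jund window ended at chr8:70697738, upstream of the annotated gene start at 70698949. The bases next to that annotated start were therefore not searched. The windows of Atf3, Fosl2 and Batf3 lay inside the annotated genes, so the bases before their annotated starts were not searched either. For Atf3, on the − strand, the window covered chr1:191183334-191183583 and the annotated start is at 191218039. The distances given above are to the RefSeq starts.

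Total counts per library ranged from 3356297 in the Eµ-TCL1 mouse to 10252426 in Eµ-PRMT5 mouse 4. The B cell marker list (Cd79a, Cd79b, Ms4a1, Pax5, Cd22 and Cd5) summed to between 1590 and 6340 CPM, so the labelled cell type was seen in every library, with none of these 6 genes at 0. Markers of other cells were also counted. Summed CPM ranged from 423 to 8781 for 10 neutrophil genes, from 997 to 7359 for 6 macrophage and monocyte genes, from 208 to 719 for 6 T cell genes, from 21.1 to 364 for 4 NK cell genes, from 16.1 to 314 for 5 erythroid genes and from 669 to 5897 for 5 plasma cell genes. In such bulk samples, fewer cells of a type and less RNA per cell cannot be told apart. Prmt5, the mouse ortholog of the transgene, measured 62.7 to 235 CPM in the Eµ-PRMT5 mice, 110 to 126 CPM in Eµ-PRMT5/TCL1 mice, with the Eµ-TCL1 mouse at 79.5 CPM, and the sources used here do not say if reads of human PRMT5 were assigned to it.

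Per length, Junb was the most abundant AP-1 transcript. Divided by exonic length in kb, it averaged 346 ± 120 CPM per kb (SD, n = 8), followed by Fos at 165 ± 186 and Jun at 98.7 ± 104. Atf3 averaged 40.6 ± 25.8 CPM per kb and Batf 19.3 ± 11.4. The other 5 members stayed lower, with Fosl1 at 5.595 ± 9.86, Fosb at 3.69 ± 3.19, Batf3 at 3.47 ± 1.87, Fosl2 at 1.65 ± 1.44 and Jund at 1.32 ± 0.756 CPM per kb. Every neighbouring pair in this order overlapped. Junb exceeded Fos in 6 of 8 mice, Fos exceeded Jun in 7, Jun exceeded Atf3 in 4, Atf3 exceeded Batf in 6 and Batf exceeded Fosl1 in 7. Fosl1 exceeded Fosb in only 3 of 8 mice, so that its higher mean came from few mice, Fosb exceeded Batf3 in 5, Batf3 exceeded Fosl2 in 6 and Fosl2 exceeded Jund in 6. The exonic length is that of all annotated exons together, which understates the level of genes with long alternative ends.

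The makeup of the family differed between mice of the same genotype. Junb led in 6 mice and made up 82.3% of the summed CPM per kb of the 10 members in Eµ-PRMT5 mouse 1 and 76.9% in the Eµ-TCL1 mouse. Fos led in the other 2, with 41.5% in Eµ-PRMT5 mouse 3 and 44.4% in double-transgenic mouse 3, where Junb held 27.8% and 26.5%. The ratio of Fos to Junb per length was 0.0486, 0.0981, 1.495 and 0.708 in the 4 Eµ-PRMT5 mice, then 0.205, 0.202 and 1.68 in the 3 Eµ-PRMT5/TCL1 mice, against 0.113 for Eµ-TCL1. The FOS genes together held 5.42% to 42.4% of the family in Eµ-PRMT5 mice, 13.6% to 45.3% in Eµ-PRMT5/TCL1 mice and 9.55% in the Eµ-TCL1 mouse. The JUN genes held more than the FOS genes in every mouse, with shares from 51.2% to 85.6%.

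**Figure D1:**
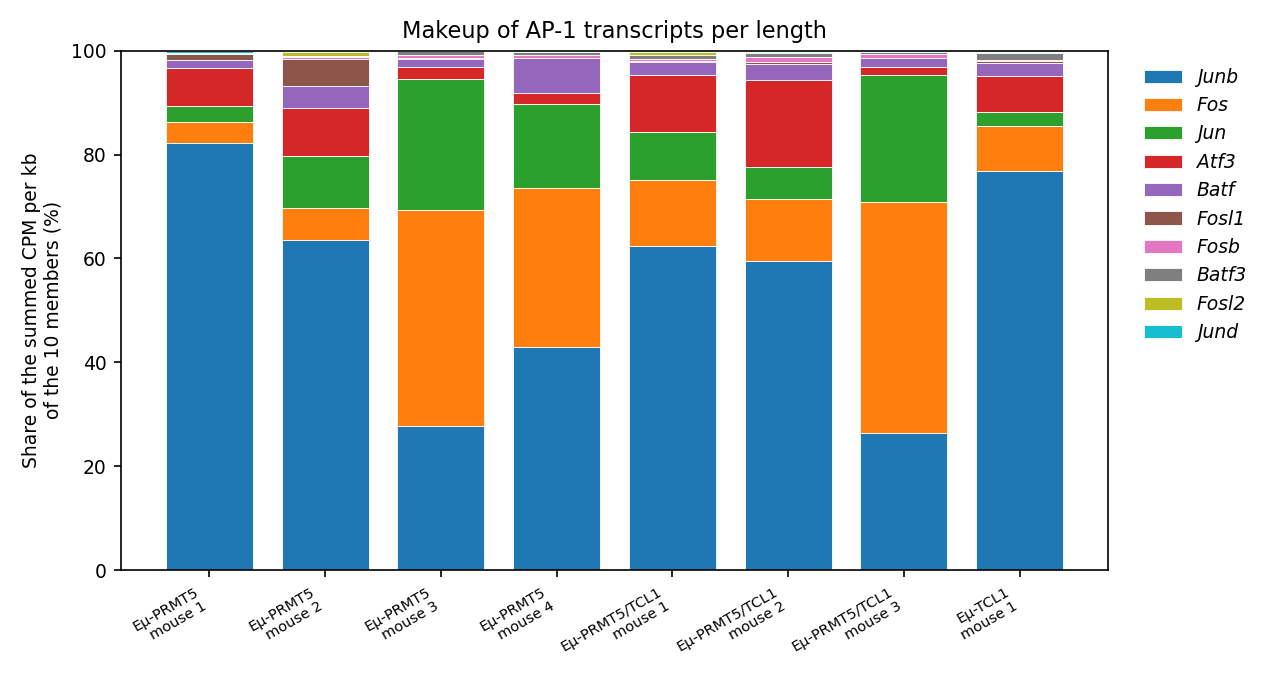
Share of each AP-1 member (%, vertical axis) in the summed CPM per kb of the 10 members, 1 bar per mouse. Junb (blue) is the largest share in 6 mice, and Fos (orange) is the largest share in Eµ-PRMT5 mouse 3 (41.5%) and double-transgenic mouse 3 (44.4%).

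Fos, the prototype of the family (chr12:85473890-85477273, + strand, GRCm38), measured 72.5, 79.5, 912 and 480 CPM in the 4 Eµ-PRMT5 mice, then 134, 152 and 1194 CPM in the 3 Eµ-PRMT5/TCL1 mice, with the Eµ-TCL1 mouse at 90.8 CPM. It was thus high in Eµ-PRMT5 mice 3 and 4 and double-transgenic mouse 3, with no mouse between 152 and 480 CPM, and each replicated genotype held both high and low mice. Jun, its main partner (chr4:95049034-95052222, − strand), measured 73.1, 173, 754 and 347 CPM in the 4 Eµ-PRMT5 mice, then 132, 104 and 895 CPM in the 3 Eµ-PRMT5/TCL1 mice, with the Eµ-TCL1 mouse at 38.4 CPM. The same 3 mice were the highest for Jun, and the Eµ-TCL1 mouse was the lowest. Fosb (chr7:19302696-19310051, − strand), whose product is a FOS protein with its own transactivation domain, measured 7.71, 8.39, 37.8 and 20.2 CPM in the 4 Eµ-PRMT5 mice, then 8.36, 34.2 and 61.5 CPM in the 3 Eµ-PRMT5/TCL1 mice, with the Eµ-TCL1 mouse at 6.22 CPM. Here double-transgenic mouse 2 joined the high mice, and the Eµ-TCL1 mouse was again the lowest.

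Fosl1 and Atf3 ran the other way. Fosl1, which encodes FRA1, a FOS protein without that domain (chr19:5447547-5455946, + strand), measured 17.9, 59.1, 3.19 and 0.692 CPM in the 4 Eµ-PRMT5 mice, then 2.62, 3.15 and 0.922 CPM in the 3 Eµ-PRMT5/TCL1 mice, with the Eµ-TCL1 mouse at 3.51 CPM, from 6 to 373 counts. It was high in the 2 Eµ-PRMT5 mice with the least Fos and lowest in Eµ-PRMT5 mouse 4 and double-transgenic mouse 3, and its highest and lowest levels differed 85.4-fold. Exons of Ccdc85b on the opposite strand cover 57.2% of its exonic bases, and since the sources used here do not say whether counting used strand, reads of the pair cannot be told apart; Ccdc85b itself had 37 to 144 counts. The like overlap was 7.28% for Jun, with Junos at 9 to 25 counts, and 7.52% for Junb, with Prdx2 at 471 to 3069 counts. Atf3, a stress-induced member that represses as a homodimer (chr1:191170296-191218039, − strand), measured 122, 108, 44.5 and 28.7 CPM in the 4 Eµ-PRMT5 mice, then 105, 193 and 34.3 CPM in the 3 Eµ-PRMT5/TCL1 mice, with the Eµ-TCL1 mouse at 64.9 CPM. The 3 mice highest in Fos were the 3 lowest in Atf3.

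Junb, by contrast, was steady (chr8:84974484-84978718, − strand). It measured 1459, 793, 597 and 662 CPM in the 4 Eµ-PRMT5 mice, then 638, 734 and 697 CPM in the 3 Eµ-PRMT5/TCL1 mice, with the Eµ-TCL1 mouse at 785 CPM. Only Eµ-PRMT5 mouse 1 lay apart, and the highest and lowest mice differed 2.45-fold. Fosl2, which encodes FRA2 (chr5:32135801-32157842, + strand), measured 9.13, 47.0, 7.75 and 12.3 CPM in the 4 Eµ-PRMT5 mice, then 24.4, 13.4 and 3.84 CPM in the 3 Eµ-PRMT5/TCL1 mice, with the Eµ-TCL1 mouse at 10.003 CPM. Eµ-PRMT5 mouse 2 was far above the other mice of its genotype for Fosl2, as it was for Fosl1.

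Batf (chr12:85686669-85709087, + strand), needed for class switching in B cells, measured 16.6, 31.8, 21.7 and 63.8 CPM in the 4 Eµ-PRMT5 mice, then 14.8, 24.5 and 28.3 CPM in the 3 Eµ-PRMT5/TCL1 mice, with the Eµ-TCL1 mouse at 15.7 CPM. The highest value came from Eµ-PRMT5 mouse 4 and the other 7 mice lay within 14.8 to 31.8 CPM. Batf3, known for its role in cross-presenting dendritic cells (chr1:191097847-191108945, + strand), measured 0.812, 1.90, 8.89 and 5.88 CPM in the 4 Eµ-PRMT5 mice, then 6.07, 5.58 and 5.69 CPM in the 3 Eµ-PRMT5/TCL1 mice, with the Eµ-TCL1 mouse at 9.46 CPM, from 4 to 51 counts. The 3 Eµ-PRMT5/TCL1 mice were close together, and Eµ-PRMT5 mice 1 and 2 were the lowest. Jund (chr8:70698949-70700616, + strand) had 4 to 23 counts per library, or 0.912 to 4.67 CPM, and at such counts the counting error is large beside the differences between mice. Exons on the opposite strand cover 52.6% of its exonic bases, and reads lost to or shared with that gene cannot be told apart from a low level.

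**Figure D2:**
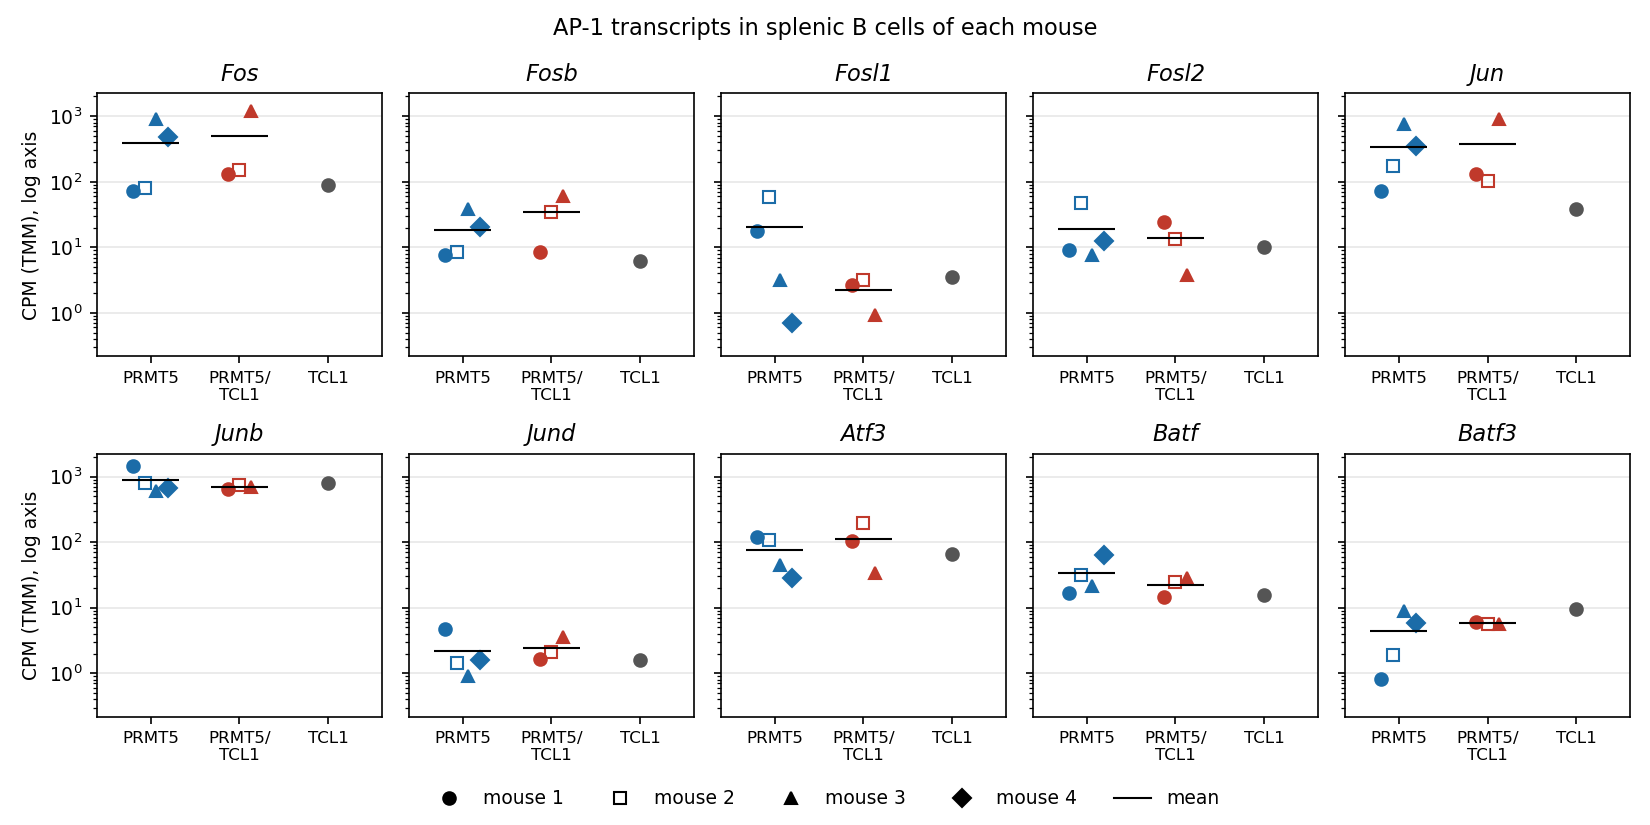
Level of each AP-1 member in CPM (log axis) in Eµ-PRMT5 (blue, n = 4), Eµ-PRMT5/TCL1 (red, n = 3) and Eµ-TCL1 (grey, n = 1) mice; each symbol is 1 mouse and lines are group means. Fos spreads 12.6-fold and Jun 10.3-fold within the Eµ-PRMT5 mice, and 8.94-fold and 8.60-fold within the Eµ-PRMT5/TCL1 mice, whereas Junb stays between 597 and 1459 CPM.

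The spread between mice of 1 genotype was largest for Fos, Fosl1 and Jun and smallest for Junb among the 10 members. On the log2(CPM + 1) scale, the pooled SD within genotypes was 1.81 for Fos and 1.81 for Fosl1, and 99.5% of the 13173 genes had a smaller one than each. It was 1.54 for Jun (98.7% of genes smaller), 1.19 for Fosb (95.4%), 1.16 for Fosl2 (94.8%) and 1.10 for Atf3 (93.7%). For Batf3 it was 0.87 (84.4%) and for Batf 0.70 (69.7%). Junb, with 0.45 (32.8%), lay under the median gene at 0.56, and Jund at 0.58 (54.3%) was near it on this scale, which compresses low values.

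**Figure D3:**
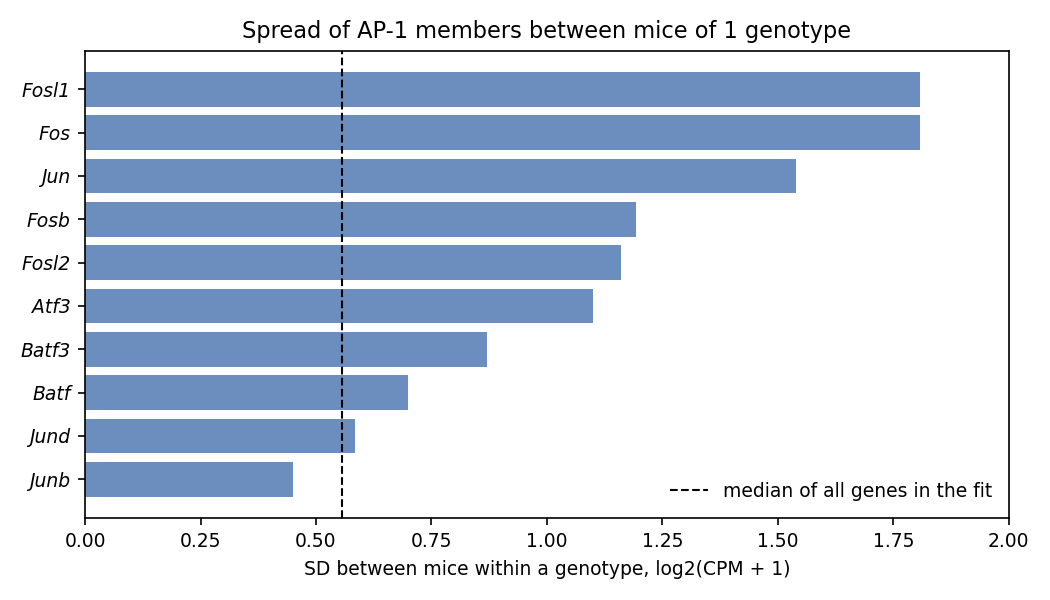
SD of log2(CPM + 1) between mice of the same genotype (horizontal axis) for each AP-1 member, pooled over the 4 Eµ-PRMT5 and 3 Eµ-PRMT5/TCL1 mice; the dashed line is the median over all genes in the fit (0.56). Fos and Fosl1 (both 1.81) have the longest bars and Junb (0.45) the shortest.

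Members were compared across the 8 mice in all 45 pairs by exact two-sided permutation of log2(CPM + 1) over 40320 orders. After Benjamini-Hochberg adjustment over the pairs, 0 reached the threshold of 0.05 by Pearson's r or by Spearman's rho, and 7 pairs had an unadjusted permutation p under it by r, of which 4 were positive and 3 negative. The largest r was that of Fos with Jun, at 0.91 (exact p = 0.00206, adjusted p = 0.0926) and rho = 0.79 (exact p = 0.0279, adjusted p = 0.331). Leaving out the pair farthest from the Fos median, namely Eµ-PRMT5 mouse 3 and double-transgenic mouse 3, r was 0.72, and over deviations from genotype means in the 7 mice of replicated genotypes it was 0.95. Fos with Fosb gave r = 0.87 (exact p = 0.00789, adjusted p = 0.178) and rho = 0.86 (exact p = 0.0107, adjusted p = 0.241), with r = 0.64 without those 2 mice. Fosb with Jun gave r = 0.80 (exact p = 0.0245, adjusted p = 0.247) and the same rho of 0.86 (exact p = 0.0107, adjusted p = 0.241), with r = 0.46 without them. By rho, both pairs with Fosb thus lay above Fos with Jun.

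The negative relations with Fos that are described are those with Atf3, Fosl1 and Junb, of which only the first had an unadjusted p under 0.05 by r. Fos with Atf3 gave r = −0.77 (exact p = 0.0341, adjusted p = 0.247) and rho = −0.67 (exact p = 0.0831, adjusted p = 0.481), with r = −0.66 without the same 2 mice. Fos with Fosl1 gave r = −0.67 (exact p = 0.0598, adjusted p = 0.336) and rho = −0.76 (exact p = 0.0368, adjusted p = 0.331), with r = −0.75 without them. Fos with Junb gave r = −0.59 (exact p = 0.0954, adjusted p = 0.358), with r = −0.57 without the same 2 mice. Its rho of −0.76 (exact p = 0.0368, adjusted p = 0.331) equalled that of Fos with Fosl1.

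The other 3 pairs with an unadjusted p under 0.05 by r involve low-count members and lost their size or turned once the pair of mice at the extremes of the first gene was left out. Junb with Batf3 gave r = −0.82 (exact p = 0.0199, adjusted p = 0.247) and rho = −0.64 (exact p = 0.0962, adjusted p = 0.481), with r = −0.28 without Eµ-PRMT5 mice 1 and 3. Fosl1 with Batf3 gave r = −0.75 (exact p = 0.0384, adjusted p = 0.247) and rho = −0.31 (exact p = 0.462, adjusted p = 0.649), with r = 0.59 without Eµ-PRMT5 mice 1 and 2. Junb with Jund gave r = 0.74 (exact p = 0.0359, adjusted p = 0.247) and rho = 0.43 (exact p = 0.299, adjusted p = 0.612), with r = −0.18 without Eµ-PRMT5 mice 1 and 3.

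The 3 mice high in Fos stood apart from the other 5. Neither set holds 6 mice, so the relations with Fos were not tested within each set. How far each pooled value rests on the difference between the sets was not tested.

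**Figure D4:**
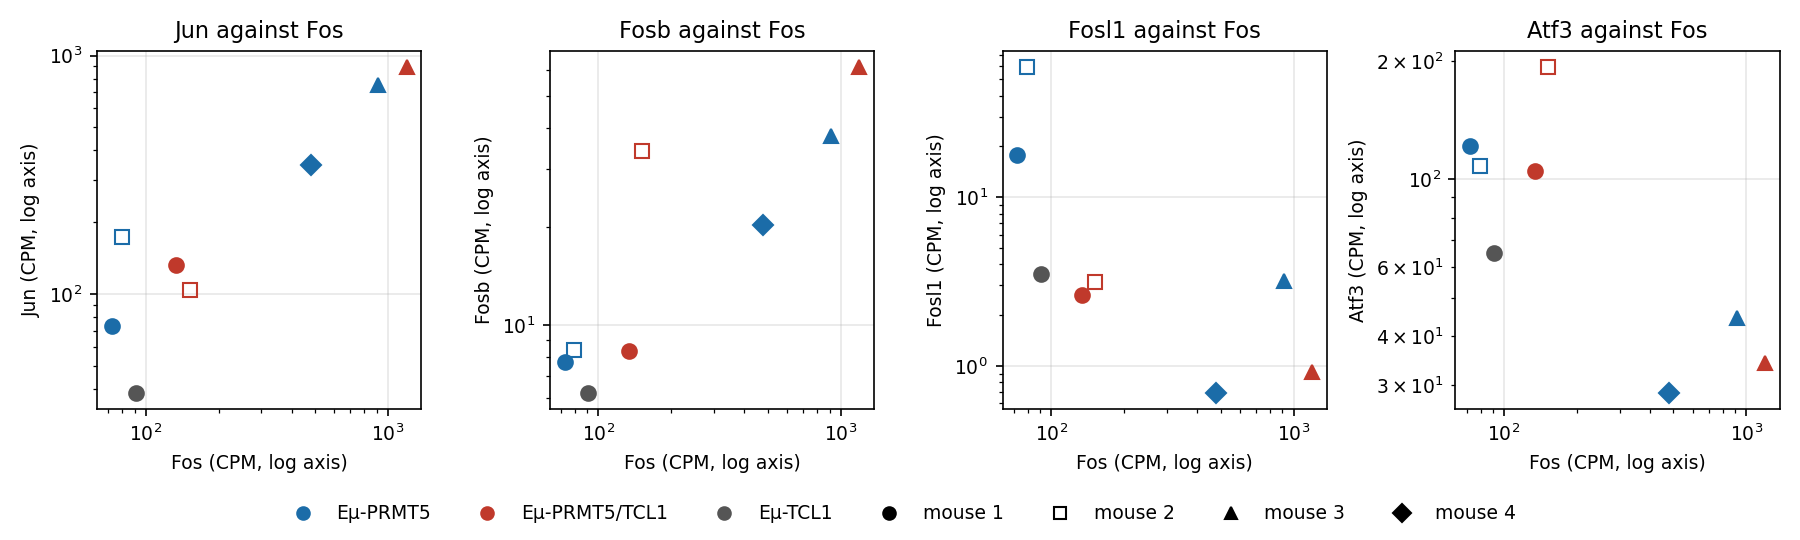
Jun, Fosb, Fosl1 and Atf3 (vertical axes, CPM, log scale) against Fos (horizontal axes, CPM, log scale); each symbol is 1 mouse, coloured by genotype. The 3 mice at 480 CPM of Fos or more have the highest Jun and the lowest Atf3 of the 8 mice.

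The genes whose log2(CPM + 1) followed a member most closely over the 8 mice were listed as a description, being the highest of 13173 genes. For Fos they were 8030411F24Rik (r = 0.98), Pdia4 (0.97), Ctrl (0.95), Gm11832 (0.94) and Phyhip (0.94). Of these only Pdia4, an endoplasmic reticulum disulfide isomerase, was abundant, at 559 to 2334 CPM, and the others did not exceed 8.43 CPM. For Jun they were Cd22 (0.97), an inhibitory coreceptor of B cells that is also in the B cell marker list, Smim1 (0.95), Wdr1 (0.93), Cd48 (0.93) and Rhebl1 (0.92). For Batf they were Prpf8 (0.97; 256 to 535 CPM), a core splicing factor, Cwf19l1, Mrps27, Faap24 and Drg2 (each 0.97).

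As sums over each list, cell type markers and other induced genes took other orders across the mice than Fos did. In the 3 mice high in Fos (Eµ-PRMT5 mice 3 and 4 and double-transgenic mouse 3), B cell markers summed to 4854, 1590 and 6340 CPM, against 2318 to 4228 CPM in the other 5. Neutrophil markers summed to 423, 5304 and 645 CPM in them, against 608 to 8781 CPM, with 1 of the 10 genes at 0 in Eµ-PRMT5 mouse 3. Macrophage and monocyte markers summed to 1255, 3353 and 997 CPM, against 1090 to 7359 CPM. T cell markers summed to 719, 324 and 291 CPM, against 208 to 719 CPM. The 719 CPM of double-transgenic mouse 2 was mostly Lck, at 667 CPM, with Cd3g at 29.3, Cd8b1 at 9.58 and Cd3e at 6.43 CPM. In Eµ-PRMT5 mouse 3, Lck measured 387, Cd8b1 125, Cd3g 71.1 and Cd3e 55.2 CPM, so equal sums held different genes. NK cell markers summed to 364, 56.3 and 21.1 CPM, against 30.8 to 84.8 CPM. Among single markers, Cd22 of the B cell list and Mzb1 of the plasma cell list were each highest in the 3 mice high in Fos. The part of the listed cell types in the AP-1 levels was not tested. Heat shock genes, 9 in all, summed to 3397, 5514 and 4814 CPM in the high mice and to 2142 to 9111 CPM in the others.

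The other immediate early genes, a list of 23, also took another order as a sum. They summed to 2548, 2334 and 3366 CPM in the 3 mice high in Fos and to 2786 to 5196 CPM in the other 5. Single genes differed in this. Dusp1 was highest in the 3 mice high in Fos, at 342, 588 and 364 CPM, against 137 to 337 CPM in the other 5. Nr4a1, an orphan nuclear receptor induced by antigen receptor signals, measured 288, 1272, 142 and 65.3 CPM in the 4 Eµ-PRMT5 mice, then 319, 1244 and 124 CPM in the 3 Eµ-PRMT5/TCL1 mice, with the Eµ-TCL1 mouse at 370 CPM. Thus the mice high in Fos were the 3 lowest in Nr4a1. Egr1, a zinc finger factor induced through ERK, measured 135, 331, 174 and 69.2 CPM in the 4 Eµ-PRMT5 mice, then 93.8, 290 and 564 CPM in the 3 Eµ-PRMT5/TCL1 mice, with the Eµ-TCL1 mouse at 895 CPM, where it was the highest and Jun the lowest. Ier2, another early gene, varied less, from 278 to 693 CPM.

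The first comparison asked what the second transgene adds to PRMT5: Eµ-PRMT5/TCL1 mice were set against Eµ-PRMT5 mice. None of the 10 members separated the genotypes, and the values overlapped for each. By edgeR's quasi-likelihood test with Benjamini-Hochberg adjustment 0 of 10 passed an adjusted p under 0.05, as did 0% of all 13173 genes. At an unadjusted p under 0.05 there was 1 member of 10, against 286 genes or 2.17% of all. DESeq2 called 4 genes, and no AP-1 member among them. All mice of one genotype lay above or below all of the other for 0 members in either direction, against 1.35% of genes for higher and 1.59% for lower in Eµ-PRMT5/TCL1 mice.

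Fos averaged 493 ± 607 CPM (SD, n = 3) in Eµ-PRMT5/TCL1 and 386 ± 399 CPM (n = 4) in Eµ-PRMT5 mice, a log2 fold change of 0.35 (standard error 0.92). Its direction rested on double-transgenic mouse 3, without which the value was −1.43, and it was 1.23 without Eµ-PRMT5 mouse 3. Jun averaged 377 ± 449 and 337 ± 300 CPM, a log2 fold change of 0.16 (standard error 0.81), or −1.51 without the same mouse; it also turned negative without Eµ-PRMT5 mouse 1 (−0.14) or 2 (−0.05). Junb averaged 689 ± 48.5 and 877 ± 396 CPM, a log2 fold change of −0.35 (standard error 0.40), which was 0.03 without Eµ-PRMT5 mouse 1. The member with the unadjusted p under 0.05 was Fosl1, at 0.922 to 3.15 CPM against 0.692 to 59.1 CPM, with a log2 fold change of −3.17 (standard error 1.19, unadjusted p = 0.0204 and adjusted p = 1.0 by edgeR). It ranked 85th by p among all genes, and without Eµ-PRMT5 mouse 2 the value was −1.68 (unadjusted p = 0.128 by edgeR).

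The remaining members gave log2 fold changes of 0.91 for Fosb (standard error 0.68), 0.55 for Atf3 (0.59), 0.40 for Batf3 (0.72), 0.19 for Jund (0.73), −0.46 for Fosl2 (0.74) and −0.58 for Batf (0.51). Those of Fosl2 (0.51 without Eµ-PRMT5 mouse 2), Atf3 (−0.12 without double-transgenic mouse 2) and Jund (−0.18 without double-transgenic mouse 3 and −0.05 without Eµ-PRMT5 mouse 3) changed sign with 1 mouse. Others shrank toward 0: Fosb was 0.20 without double-transgenic mouse 3, Batf −0.057 without Eµ-PRMT5 mouse 4 and Batf3 0.084 without Eµ-PRMT5 mouse 1. The median over the members was 0.18, against −0.09 over all genes, with 6 members positive.

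The second comparison set Eµ-PRMT5 mice against the Eµ-TCL1 mouse, and asks how far the PRMT5-driven disease lay from the TCL1-driven one. The Eµ-TCL1 mouse lay below each of the 4 Eµ-PRMT5 mice for Jun, Fosb and Batf, and above each of them for Batf3. That made 3 of 10 members higher in every Eµ-PRMT5 mouse, against 17.9% of all genes, and 1 of 10 lower, against 24.4%. With scaling by library size alone only Jun and Batf3 stayed outside the range. By edgeR 0 members passed an adjusted p under 0.05, as did 0% of all genes; at an unadjusted p under 0.05 there were 0 members against 893 genes or 6.78%, and DESeq2 called 18 genes and no member.

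Jun had the largest difference in size, a log2 fold change of 3.13 (standard error 1.5, unadjusted p = 0.0579 and adjusted p = 0.709 by edgeR) with all 4 Eµ-PRMT5 mice higher. Fosl1 gave 2.52 (standard error 1.87), Fos 2.09 (1.57), Fosb 1.57 (1.16), Batf 1.10 (0.80), Fosl2 0.93 (1.17), Jund 0.40 (1.17), Atf3 0.22 (0.88), Junb 0.16 (0.59) and Batf3 −1.11 (0.99). Single mice moved several of these by over 1.5 times. Without Eµ-PRMT5 mouse 3, Fos was 1.21 and Fosb 0.96, and Batf3 was −1.68. Without Eµ-PRMT5 mouse 2, Fosl1 was 1.03 and Fosl2 −0.034. Batf was 0.58 without Eµ-PRMT5 mouse 4, and without Eµ-PRMT5 mouse 1 Jund was −0.16 and Batf3 −0.67. Fos overlapped in spite of its size, since the Eµ-TCL1 mouse at 90.8 CPM lay above Eµ-PRMT5 mice 1 and 2. In all, 9 of 10 members had a positive value and their median was 1.01, against 0.04 over all genes. By library size alone the median over all genes was −0.21, that of the members 0.74, and 7 were positive.

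The third comparison set Eµ-PRMT5/TCL1 mice against the same Eµ-TCL1 mouse, so it shares that library with the second. Fos, Fosb, Jun and Jund were higher in all 3 Eµ-PRMT5/TCL1 mice, 4 of 10 members against 27.6% of all genes. Fosl1, Junb and Batf3 were lower in all 3, 3 of 10 members against 39.0% of all genes. Jund did not stay apart with scaling by library size alone. By edgeR 0 members passed an adjusted p under 0.05, as did 0% of all genes; at an unadjusted p under 0.05 there were 0 members against 802 genes or 6.09%, and DESeq2 called 16 genes and no member.

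Jun again had the largest value, a log2 fold change of 3.30 (standard error 1.53, unadjusted p = 0.0518 and adjusted p = 0.778 by edgeR), which was 1.62 without double-transgenic mouse 3. Fosb gave 2.48 (standard error 1.25) and Fos 2.44 (1.64), of which the latter was 0.65 without that mouse. Atf3 gave 0.77 (0.94), Jund 0.58 (1.2), Batf 0.52 (0.79), Fosl2 0.47 (1.16), Junb −0.19 (0.60), Fosl1 −0.65 (1.67) and Batf3 −0.71 (1.05). Without double-transgenic mouse 3, Jund was 0.22, Batf 0.32, Fosl1 −0.28, Fosl2 0.92 and Atf3 1.198. Without double-transgenic mouse 2, Atf3 was 0.10 and Fosl1 −0.98, and without mouse 1 Fosl2 was −0.21. The members' median was 0.55, against −0.07 over all genes, and 7 were positive.

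**Figure D5:**
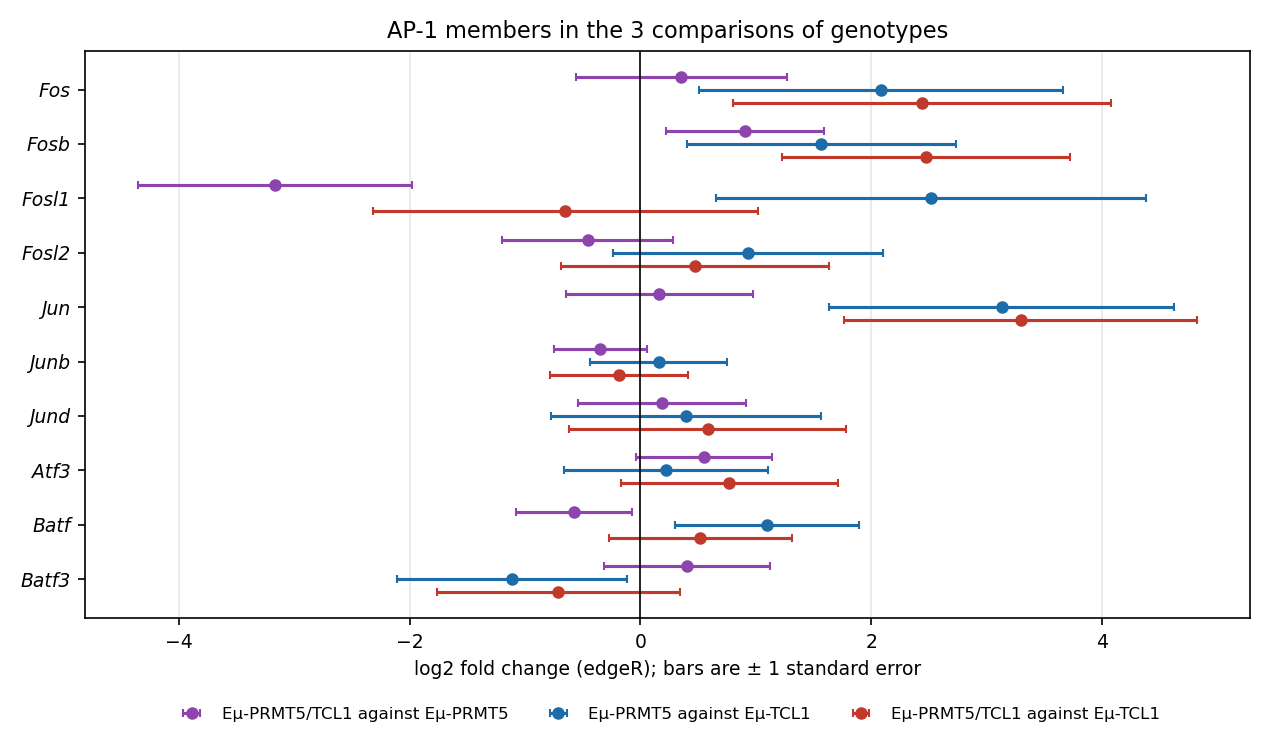
Log2 fold change by edgeR (horizontal axis, bars ± 1 standard error) of each AP-1 member in Eµ-PRMT5/TCL1 (n = 3) against Eµ-PRMT5 (n = 4), and of each against the Eµ-TCL1 mouse (n = 1). Jun lies farthest to the right in both comparisons with the Eµ-TCL1 mouse (3.13 and 3.30), and Fosl1 farthest to the left in the comparison of the replicated genotypes (−3.17).

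Genes that act with AP-1 were examined as lists, and by edgeR 0 genes of any list passed an adjusted p under 0.05 in any of the 3 comparisons, taken here in the same order. Counts at an unadjusted p under 0.05 follow, to be read against 2.17%, 6.78% and 6.09% of all genes in the 3 comparisons. Among 17 other bZIP genes these were 0, 1 and 1, in both cases Atf5, which measured 50.6 CPM in the Eµ-TCL1 mouse and 2.43 to 10.3 CPM in the other 7. Atf4, the integrated stress response factor and the most abundant of the list, ranged from 119 to 467 CPM. Among 7 partner factors at composite sites they were 1, 0 and 0. The 1 was Spi1 (PU.1), at 120 to 219 CPM in the Eµ-PRMT5 mice and 168 to 522 CPM in Eµ-PRMT5/TCL1 mice. Its log2 fold change was 1.21 (standard error 0.41). The macrophage and monocyte markers had a median of 0.98 in that comparison, and their part in the Spi1 value was not tested. Irf8, which binds with BATF, measured 272 to 1141 CPM and was highest in Eµ-PRMT5 mouse 2.

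Among 20 genes of the MAP kinase route to AP-1 the counts were 0 in each comparison, with medians of 0.06, 0.03 and −0.03. Map3k1, a kinase upstream of JNK, was the most abundant, at 1636 CPM in Eµ-PRMT5 mouse 1 and 176 to 464 CPM in the others. Among the 23 other immediate early genes there was 1 lower (Cd69), then 2 higher (Dusp1 and Klf6) and 1 lower (Egr1), then 1 higher (Zfp36l1), with medians of 0.03, 0.42 and 0.30. For Eµ-PRMT5 mice against the Eµ-TCL1 mouse, Egr1 gave −2.34 on the log2 scale (standard error 0.77), and Klf6, a Krüppel-like factor, 1.69 (0.77).

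Among 15 lymphocyte genes known as AP-1 targets, a list that also holds Fosl1, there were 2 higher and 1 lower, then 3 higher and 2 lower, then 3 higher and 2 lower, where 2.17%, 6.78% and 6.09% of all genes passed in either direction, with medians of 0.21, 0.94 and 0.15. The 1 lower in the first comparison was Fosl1 itself, already counted among the members. Ccnd2, the cyclin D2 gene, was among those higher each time: it measured 264 to 434 CPM in the Eµ-PRMT5 mice, 506 to 828 CPM in Eµ-PRMT5/TCL1 mice, with the Eµ-TCL1 mouse at 126 CPM. The log2 fold changes of Ccnd2 were 0.89 (standard error 0.36), 1.43 (0.58) and 2.32 (0.63), and adjusted p by edgeR was 0.709 or more in each. The groups did not overlap for Ccnd2, which held in the same direction for 1.35%, 17.9% and 27.6% of all genes. Among 9 heat shock genes the counts were 0, then 2 higher, then 2 higher (Hsp90aa1 and Hspe1 in both), with medians of −0.18, 1.30 and 1.04 and all 9 positive in both comparisons with the Eµ-TCL1 mouse. The part of this in the AP-1 values was not tested.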

How the data were processed

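RNA of splenic B cells, isolated with a pan-B kit, was sequenced for 8 mice. The authors deposited raw read counts per gene symbol, unnormalized and unpooled. The methods describe a low-input preamplified library, the CLEAR workflow and DESeq2 1.20.0, whereas the labels describe another kit and a greater depth. The submitters' processing notes name GRCm38, Subread and featureCounts; for these libraries the annotation and use of strand are not given in the sources used here, though the methods name an Ensembl annotation for another RNA-seq experiment of the study. NA cells (36919) were not read as 0, so 14072 symbols with a value in all libraries were used.

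From these counts, edgeR 4.0.16 (R 4.3.3) gave TMM factors, filterByExpr kept 13173 genes, and 1 quasi-likelihood model over 3 genotypes was tested with Benjamini-Hochberg adjustment over all genes. The standard error is the log2 fold change divided by the square root of F. Correlations used log2(CPM + 1) and scipy 1.17.1. Lengths and positions are from GENCODE vM21 (GRCm38). The calculations were tested on simulated data.

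Samples were grouped by the genotype in the labels. Separate animals are the replicates, and the labels name no sequencing batch. The members and gene lists were chosen with earlier results of these data known; named genes are the members, the 4 most abundant genes of a list, genes past an unadjusted p, the 5 nearest neighbours of Fos, Jun and Batf, and Prmt5. Atf5, Cd69, Dusp1, Zfp36l1, Hspe1, Tnf, Ctla4 and Icos were named after their values were seen. The replicate numbers of the labels were checked for pairing: same-numbered mice of the replicated genotypes had correlations of deviations of 0.02, 0.11 and 0.16, so they were not treated as pairs. Alternatives were DESeq2 1.42.0, other scalings, filters and prior counts, NA as 0, only the groups compared, a fold over 4, a block and each mouse left out. Other mice were not analysed here. A gene of the marker lists is not reported here and was left out of the sums.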

Additional observations from a re-analysis of the deposited data

Results flagged for a closer look

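Among 24 sets of values in the 4 Eµ-PRMT5 mice, 4 had 1 mouse far from the others by Dixon's criterion. Independent, normally distributed values would give about 1 in 20 sets, or 1.2 here. The criterion was applied to CPM without a log scale, and the sets come from the same 4 mice. The number flagged is therefore not read as an excess. In Eµ-PRMT5 mouse 2, Fosl2 stood at 47.0 CPM, where the remaining 3 had 7.75 to 12.3 CPM. In Eµ-PRMT5 mouse 3, T cell markers summed to 719 CPM, where the remaining mice had 281 to 324 CPM, and NK cell markers to 364 CPM, where they had 45.9 to 56.3 CPM. In Eµ-PRMT5 mouse 4, macrophage and monocyte markers summed to 3353 CPM, where the remaining mice had 1136 to 1255 CPM. Eµ-PRMT5 mice 3 and 4 were those with the most Fos among Eµ-PRMT5 mice, and the part of these markers in that level was not tested.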

How the results depend on the processing

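With DESeq2 in place of edgeR, 4, 18 and 16 genes were called in the 3 comparisons, taken in the order of the report, against 0 each by edgeR; no AP-1 member was among them, and no alternative called a member. Of 521 member values under alternatives, 503 kept their direction. Outside leaving out a mouse, only values near 0 turned: for Eµ-PRMT5 against Eµ-TCL1, Junb was −0.026 with upper-quartile factors and −0.12 by library size, and Atf3 −0.039 by library size; for Eµ-PRMT5/TCL1 against Eµ-TCL1, Junb was 0.10 with NA as 0.

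Leaving out each mouse gave ranges that crossed 0. For Eµ-PRMT5/TCL1 against Eµ-PRMT5 these were −1.43 to 1.23 for Fos, −1.14 to 0.51 for Fosl2, −1.51 to 0.93 for Jun, −0.49 to 0.027 for Junb, −0.18 to 0.87 for Jund and −0.12 to 0.98 for Atf3. For Eµ-PRMT5 against Eµ-TCL1 they were −0.034 to 1.27 for Fosl2, −0.090 to 0.31 for Junb, −0.16 to 0.63 for Jund and −0.0013 to 0.49 for Atf3. For Eµ-PRMT5/TCL1 against Eµ-TCL1 the range of Fosl2 was −0.21 to 0.92. The counts of genes at an unadjusted p under 0.05 ranged from 149 to 771, from 605 to 2119 and from 404 to 1217.

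With the replicate number as a block over mice 1 to 3 of both replicated genotypes, 0 genes were called and 826 had an unadjusted p under 0.05, against 742 in the same 6 mice without the block, a fit added after seeing the data, and 286 in all 8. The block changed no call of a member. The cause of these shifts was not tested. With 1 Eµ-TCL1 mouse, its spread is assumed to equal that of the other groups, and counts of Jund (4 to 23), Batf3 and Fosl1 limit their precision. Each mouse gave 1 library. If the libraries were preamplified as in the methods, differences in that step cannot be told apart from differences between mice. The reads carry no molecular identifiers.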
